A study of Mus musculus with 12 samples.

Results

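The genes described here are 10 genes of hepatic stellate cells and of the liver's collagen matrix: Lrat, Reln, Des, Pdgfrb, Dcn, Acta2, Col1a1, Col1a2, Col3a1 and Timp1. They were chosen by symbol. All 21 probe sets that the platform annotation gives to one of these symbols alone were taken, of 45101 probe sets on the array, and the 10 genes stand among 18193 genes with a probe set of their own. A probe set is a group of oligonucleotide probes read together as one signal. 16 of the 21 probe sets and 9 of the 10 genes passed the filter on dim signals, and Pdgfrb did not.

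Liver RNA was measured on 12 single-colour arrays, and the series asks what YAP in hepatocytes does for the growth and gene response driven by the nuclear receptor CAR. Every mouse was a female of 8 to 12 weeks with both Yap1 alleles floxed, so all groups share that genotype. The group called YAP KO received the virus AAV8.TBG.PI.Cre.rBG and the group called WT the virus AAV8.TBG.PI.eGFP.WPRE.bGH8. 10 days later the mice received TCPOBOP, a CAR agonist and hepatocyte mitogen, by gavage at 3 mg/kg in corn oil. The day 0 mice received only virus, without TCPOBOP or corn oil, so the day 2 comparisons include both the agent and its vehicle. Each genotype is represented by 2 day 0 arrays, 3 day 2 arrays and, for day 1, a single array (n = 1) hybridised with a pool of RNA. The TBG promoter drives Cre in hepatocytes, so stellate cells and other cells keep Yap1. Nothing in the labels says how many mice stand behind a pool or a replicate array, and p-values measure the spread between these arrays.

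Stellate cells lie between hepatocytes and the sinusoidal endothelium, where they store vitamin A as retinyl esters. After injury they lose these stores and become contractile myofibroblasts that lay down fibrillar collagen. Reln, a secreted glycoprotein, marks stellate cells, and Lrat, which makes retinyl esters, marks the resting cell. Acta2, smooth muscle actin, and the fibrillar collagen genes mark the activated one.

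Signals are MAS5 intensities without a unit, with array medians from 231.6 to 277. Levels are compared within a probe set and never between probe sets. Yap1 was at 1234 and 1293 on the WT day 0 arrays and at 631.5 and 595.7 on the YAP KO day 0 arrays. At day 2 Yap1 read 1240, 1060 and 1306 in WT and 571.5, 539 and 796.7 in YAP KO, and every YAP KO array lay below every WT array. The day 2 difference of Yap1 was -0.92 ± 0.17 (log2, SE) with an adjusted p of 0.00844 by limma. Ccn2, a YAP target made by several cell types, did not pass the test in any comparison and differed by 0.49 ± 0.33 at day 2 (adjusted p = 0.354). The arrays of the YAP KO day 2 group had a narrower range of signal than those of WT. Over all genes the median YAP KO minus WT difference at day 2 ran from 0.21 among genes with a mean log2 signal under 8 to -0.41 among those over 14. Values after quantile normalization stand beside some of the results this touches, and a result given without them may be touched as well.

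Promoter sequences are shown for Reln, Lrat and Col1a2, the genes whose signal was lower at day 2 and for which RefSeq's table held an entry. Each is the 250 bases before the annotated start in build GRCm38.p6, 5′ to 3′ on the gene's strand, with motif matches in capitals.
Reln, chr5:22344706-22344955, minus strand: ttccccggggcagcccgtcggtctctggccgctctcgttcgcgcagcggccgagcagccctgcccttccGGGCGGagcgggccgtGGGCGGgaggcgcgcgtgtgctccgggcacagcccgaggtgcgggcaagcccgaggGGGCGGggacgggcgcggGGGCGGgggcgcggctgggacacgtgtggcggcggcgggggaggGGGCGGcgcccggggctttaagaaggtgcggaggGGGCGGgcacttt
Lrat, chr3:82903975-82904224, minus strand: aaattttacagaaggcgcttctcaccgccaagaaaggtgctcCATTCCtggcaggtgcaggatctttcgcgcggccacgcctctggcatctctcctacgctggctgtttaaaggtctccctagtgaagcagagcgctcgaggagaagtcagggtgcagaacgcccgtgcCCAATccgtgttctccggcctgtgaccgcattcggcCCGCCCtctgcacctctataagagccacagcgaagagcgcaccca
Col1a2, chr6:4505368-4505617, plus strand: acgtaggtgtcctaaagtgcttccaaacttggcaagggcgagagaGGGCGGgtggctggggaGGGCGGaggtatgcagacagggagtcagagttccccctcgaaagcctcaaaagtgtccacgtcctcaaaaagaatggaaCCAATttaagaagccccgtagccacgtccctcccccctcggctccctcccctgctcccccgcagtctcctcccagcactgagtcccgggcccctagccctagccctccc
The motifs searched on both strands were the TATA box TATAAA, the CCAAT box, the TEAD binding site CATTCC and the Sp1 binding site GGGCGG. The CArG box of SRF was searched in a strict form only: CC, 6 bases of A or T, and GG. Near matches with a G or C among those 6 bases were not counted, and the Acta2 promoter holds such near matches. TEAD proteins are the DNA-binding partners of YAP. Reln held 6 copies of GGGCGG and none of the other motifs, at a GC content of 80.0%. Lrat held 1 TEAD site, 1 CCAAT box and 1 Sp1 site on the opposite strand, and Col1a2 held 2 Sp1 sites and 1 CCAAT box. Promoters of 7 of the 10 genes were searched. Col1a1 and Dcn had no matching entry, and Pdgfrb, which failed the filter, was left out. Among these 7 the Sp1 site occurred in 5, the TEAD site in 4 and the CCAAT box in 3. The TATA box occurred in 1 and the CArG box, in the strict form, in 0. Of 32851 mouse promoters of the same length, 32.7% held the Sp1 site, 12.6% the TEAD site, 33.8% the CCAAT box, 12.4% the TATA box and 1.47% the CArG box. A match describes letters, not a bound site.

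The comparison of day 2 with day 0 asks what TCPOBOP did to these genes in each genotype. Reln was called lower at day 2 in both genotypes, Lrat in WT and Dcn in YAP KO, and no gene of the 9 tested was called higher. In WT, Lrat and Reln were called lower, which is 2 of 9 genes where limma called 12.6% of 14102 genes in either direction with 5.38% lower and 7.26% higher. In YAP KO, Reln and Dcn were called lower, again 2 of 9, where 8.69% of all genes were called, 4.49% lower and 4.2% higher. With the change averaged over the genotypes, Lrat, Reln, Dcn and Col1a2 were called lower, 4 of 9 where 14.5% were called, 6.84% lower and 7.7% higher. The arrays of day 2 lay wholly below those of day 0 for Lrat, Reln, Dcn and Col1a2 in both genotypes, 4 of 9 genes, where 25.9% of all genes did so in WT and 17.8% in YAP KO. They lay wholly above for 0 of 9 genes in WT, where 19.2% of all genes did, and for Col1a1, Des and Acta2 in YAP KO, 3 of 9 where 22.6% did. The counts of lower genes include Lrat, which passed the filter only through the day 0 arrays and the YAP KO pool. Its lack of overlap therefore adds no support. The median log2 change of the 9 genes was -0.38 in WT, beside -0.11 for all genes, and -0.20 in YAP KO, beside 0.05. In whole liver, fewer stellate cells, less RNA per stellate cell and a larger share of RNA from other cells cannot be told apart.

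Lrat encodes the acyltransferase that esterifies retinol for storage. Its brightest probe set read 547.7 and 635.3 on the WT day 0 arrays, 243.1 on the WT day 1 pool and 134.7, 60.2 and 213.3 on the WT day 2 arrays. In YAP KO it read 421.3 and 294.8 at day 0, 273.8 on the pool and 177.6, 192.0 and 161.4 at day 2. Every day 2 array lay below every day 0 array of its genotype, and in WT the pool lay between the days. The change in WT was -2.13 ± 0.45 (log2, SE; n = 3 and 2) with an adjusted p of 0.00875 by limma. In YAP KO it was -0.94 ± 0.45 with a 95% confidence interval from -1.92 to 0.04 and an adjusted p of 0.245. The changes differed between the genotypes by 1.20 ± 0.63 (adjusted p = 0.304), so a difference was not shown. Averaged over both genotypes Lrat fell by 1.54 ± 0.32 on the log2 scale (adjusted p = 0.0064), and this call held in all 22 alternatives that could be computed for it. The stricter filter, a signal above the array's median on at least 6 arrays, removed Lrat and so gave no value. The WT call alone did not survive leaving out either WT day 0 array (adjusted p = 0.0614 without replicate 1 and 0.0876 without replicate 2). No fold is given, since 1 WT day 2 signal was very dim. The probe set exceeded its array's median on 5 of 12 arrays only, the day 0 arrays and the YAP KO pool. Lrat thus passed the filter through the arrays where its signal was highest.

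Reln encodes reelin, a large secreted glycoprotein that stellate cells make in liver. It read 2979 and 3036 at WT day 0, 2013 on the WT pool and 1861, 2004 and 2095 at WT day 2. The YAP KO arrays read 3701 and 2699 at day 0, 2339 on the pool and 1984, 1776 and 1792 at day 2. The days did not overlap in either genotype, and both pools lay below their day 0 arrays. Reln was 1.51-fold lower at day 2 in WT (log2 -0.60 ± 0.14, adjusted p = 0.0192) and 1.70-fold lower in YAP KO (log2 -0.77 ± 0.14, adjusted p = 0.00615) by limma. The difference between these changes was -0.17 ± 0.20, with an interval from -0.62 to 0.27 and an adjusted p of 0.659. Averaged over genotypes Reln was 1.60-fold lower (log2 -0.68 ± 0.10, adjusted p = 0.000761), a call that held with each of the 10 arrays left out in turn. In WT alone the call was lost without WT day 0 replicate 1 (adjusted p = 0.0987), WT day 0 replicate 2 (0.115) or WT day 2 replicate 1 (0.0586), and with each array centred on its median (log2 -0.47, adjusted p = 0.109).

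Dcn encodes decorin, a small proteoglycan that binds collagen fibrils and TGF beta. It read 4074 and 4727 at WT day 0, 3933 on the WT pool and 3455, 3129 and 3543 at WT day 2. In YAP KO it read 8065 and 4719 at day 0, 3884 on the pool and 4052, 3604 and 3665 at day 2. Day 2 lay below day 0 in both genotypes, and YAP KO day 0 replicate 1 stood well above every other array. Dcn fell by 0.71 ± 0.19 (log2) in YAP KO, which is 1.63-fold (adjusted p = 0.0384 by limma). Without YAP KO day 0 replicate 1 the change was -0.32 and the call was lost (adjusted p = 0.216). It was also lost without YAP KO day 2 replicate 1 (adjusted p = 0.0667), replicate 2 (0.113) or replicate 3 (0.107). In WT the change was -0.38 ± 0.19 with an interval from -0.79 to 0.04 (adjusted p = 0.225). The average over genotypes was -0.54 ± 0.13 (adjusted p = 0.0171), -0.35 without YAP KO day 0 replicate 1 (adjusted p = 0.0265), and lost its call without WT day 0 replicate 2 (-0.49, adjusted p = 0.08).

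**Figure D1:**
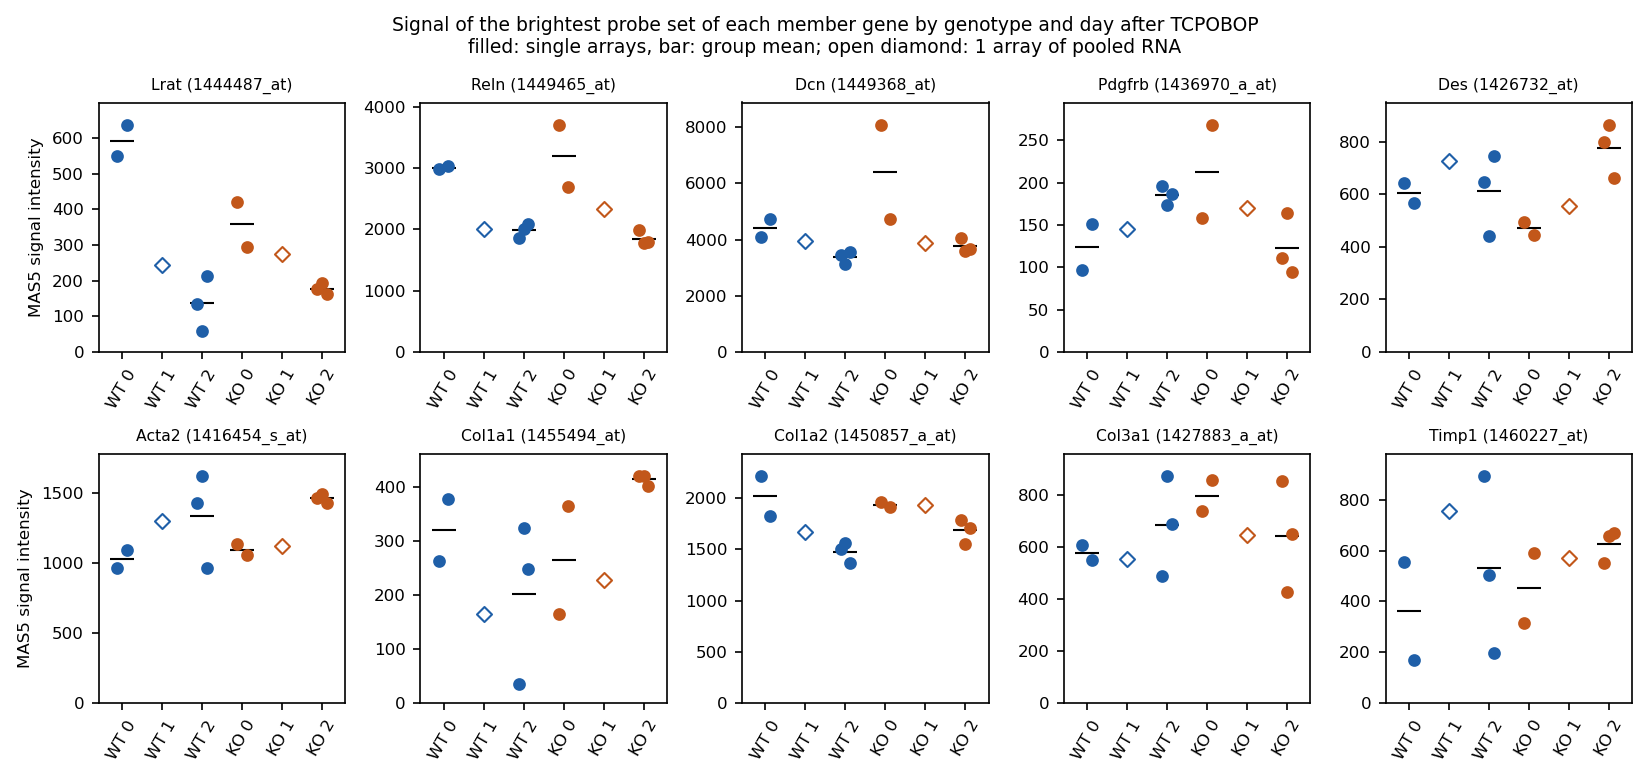
MAS5 signal intensity of the brightest probe set of each of the 10 genes (vertical axes, each from 0) in WT (blue) and YAP KO (orange) at days 0, 1 and 2, with 1 filled point per array, a bar at the mean of a group and an open diamond for a day 1 pool. Lrat, Reln and Dcn are lower at day 2 than at day 0 on every array of both genotypes, and 1 YAP KO day 0 array of Dcn stands apart at 8065.

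Among the fibrillar collagen genes, 1 of 3 passed the test, and only with the genotypes averaged. Col1a2 encodes the second chain of type I collagen. It read 2213 and 1823 at WT day 0, 1669 on the WT pool and 1502, 1559 and 1368 at WT day 2. In YAP KO it read 1958 and 1910 at day 0, 1936 on the pool and 1789, 1556 and 1705 at day 2. Day 2 lay below day 0 in both genotypes, by 1.36-fold in WT and 1.15-fold in YAP KO. The WT change was -0.44 ± 0.13 (log2; adjusted p = 0.0503 by limma, and 0.025 after quantile normalization), and the YAP KO change -0.20 ± 0.13 (adjusted p = 0.414). The average was -0.32 ± 0.09 with an adjusted p of 0.0406. That call is thin: it was lost when any of 9 of the 10 arrays was left out, with values from -0.39 to -0.25 and adjusted p from 0.0362 to 0.177. The lowest of these, with the call kept, came without WT day 0 replicate 2.

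Col1a1, the first chain of type I collagen, read 263.3 and 377.7 at WT day 0, 164.2 on the WT pool and 36.1, 323.8 and 249 at WT day 2. On the YAP KO arrays it read 164.6 and 365.7 at day 0, 227.5 on the pool and 420.5, 420.2 and 402.9 at day 2. The 3 YAP KO day 2 arrays stood close together above all others, and WT day 2 replicate 1 far below the rest. The log2 change was -0.99 ± 0.67 in WT (interval -2.45 to 0.48, adjusted p = 0.378) and 0.71 ± 0.67 in YAP KO (interval -0.75 to 2.18, adjusted p = 0.587). Without WT day 2 replicate 1 the WT value was -0.14. Col3a1, the type III chain that assembles with type I fibrils, read 607.9 and 548.9 at WT day 0 and 488.4, 873.3 and 689.1 at WT day 2. On the YAP KO arrays it read 740.4 and 857.5 at day 0 and 853.4, 426.7 and 651.9 at day 2, and the days overlapped in both genotypes. Its changes were 0.20 ± 0.29 in WT (interval -0.43 to 0.83, adjusted p = 0.705) and -0.35 ± 0.29 in YAP KO (interval -0.99 to 0.28, adjusted p = 0.52). These intervals are too wide to say that either gene stayed level.

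The genes of the contractile and mesenchymal state were not called in either genotype. Acta2 read 966.2 and 1092 at WT day 0, 1300 on the WT pool and 1430, 1623 and 966.4 at WT day 2. On the YAP KO arrays it read 1135 and 1061 at day 0, 1123 on the pool and 1464, 1497 and 1434 at day 2. All 3 YAP KO day 2 arrays exceeded both day 0 arrays, whereas WT day 2 replicate 3 read no more than day 0. The changes were 0.35 ± 0.19 in WT (interval -0.07 to 0.76, adjusted p = 0.276) and 0.41 ± 0.19 in YAP KO (interval -0.01 to 0.83, adjusted p = 0.229), and their average 0.38 ± 0.14 (adjusted p = 0.09). Without WT day 2 replicate 3 the change was 0.56 in WT (adjusted p = 0.0363) and 0.49 on average (adjusted p = 0.00825), past the threshold.

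Des encodes desmin, an intermediate filament protein of stellate and muscle cells. It read 644.3 and 565.8 at WT day 0 and 645.5, 440 and 747 at WT day 2, with full overlap. The YAP KO signals were 494.4 and 446.1 at day 0, 555.7 on the pool and 799.5, 862.6 and 662 at day 2, without overlap. The changes were -0.02 ± 0.23 in WT (interval -0.51 to 0.48, adjusted p = 0.976) and 0.69 ± 0.23 in YAP KO (adjusted p = 0.0867), the latter 1.62-fold. Their difference was 0.71 ± 0.32 (adjusted p = 0.234). Timp1, a secreted inhibitor of matrix metalloproteinases, read 556.8 and 170.8 at WT day 0, 754.1 on the WT pool and 893, 504.9 and 198.1 at WT day 2. The YAP KO signals were 315.4 and 591.1 at day 0, 569.4 on the pool and 552.8, 657 and 668.7 at day 2. Arrays of one group differed by up to 4.51-fold for Timp1, and its change of 0.51 ± 0.56 in each genotype had an interval from -0.72 to 1.74.

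Pdgfrb, the receptor through which PDGF drives stellate cell growth, exceeded its array's median on 0 of 12 arrays with either probe set. Its brighter probe set read 96.8 and 150.8 at WT day 0, 173.3 to 196.4 at WT day 2, 157.9 and 267.8 at YAP KO day 0 and 94.7 to 164.6 at YAP KO day 2. Fitted without the filter over 34945 probe sets, its change was 0.55 ± 0.41 in WT (adjusted p = 0.525) and -0.71 ± 0.41 in YAP KO (adjusted p = 0.452).

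**Figure D2:**
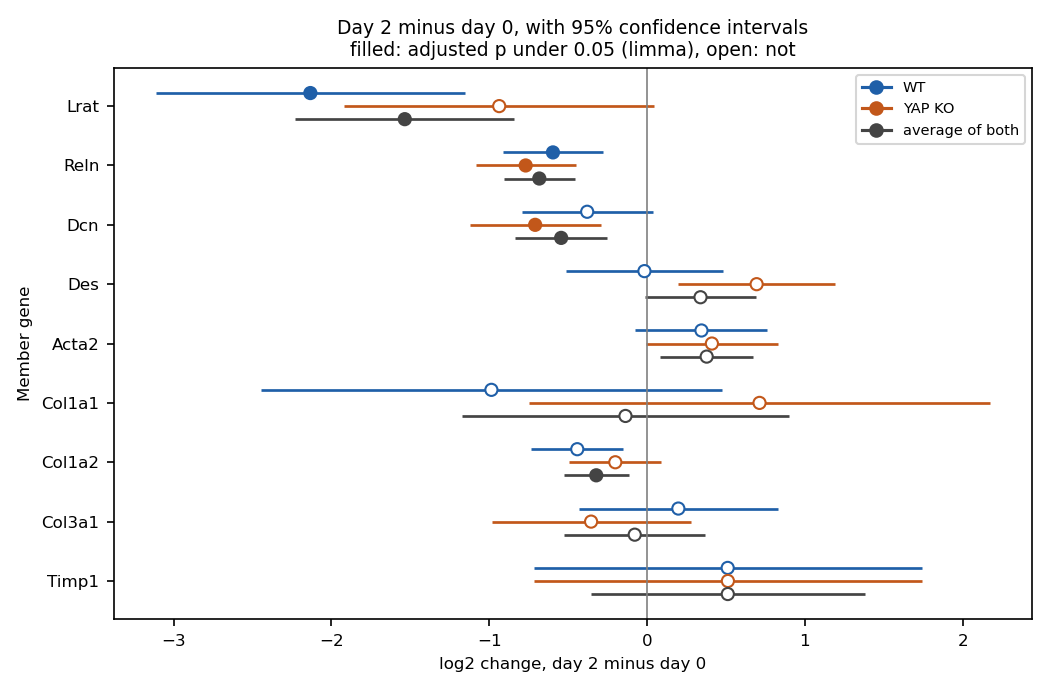
Fitted log2 change from day 0 to day 2 (horizontal axis) for the 9 tested genes in WT (blue), YAP KO (orange) and averaged over both (grey), with 95% confidence intervals and filled points where the adjusted p by limma was under 0.05. Lrat, Reln, Dcn and Col1a2 are filled for the average, and the intervals of Col1a1 and Timp1 are the widest for a single genotype.

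9 of the 10 genes have more than 1 probe set, and the dimmer ones did not repeat the calls. In the fit of every kept probe set, 0 of the 7 second probe sets passed the test by limma in any of the 7 comparisons, while the brightest ones of Lrat, Reln, Dcn and Col1a2 were called for the average. The shares of all 23038 probe sets called were 11.3% in WT, 7.27% in YAP KO, 13.2% for their average, 7.86% between genotypes at day 2, 0.135% at day 0, 0.2% over both days and 2.57% for the difference between changes. The second probe set of Lrat read 282.3 and 304.2 at WT day 0 and 176, 170.3 and 195.3 at WT day 2. Those days did not overlap, but its change of -0.66 ± 0.54 was not called (adjusted p = 0.489). The WT day 0 arrays alone took this probe set past the filter, so the lack of overlap adds no support. The second probe set of Reln changed by -0.26 ± 0.46 in WT and -0.03 ± 0.46 in YAP KO, and that of Dcn by -1.01 ± 0.53 and -0.25 ± 0.53. For Des in YAP KO the probe sets ran opposite ways. The second one changed by 0.79 ± 0.69 in WT and -1.31 ± 0.69 in YAP KO (adjusted p = 0.52 and 0.313), without overlap of the days in either genotype. It passed the filter through 3 arrays only: the WT pool, WT day 2 replicate 3 and YAP KO day 0 replicate 2. The lack of overlap therefore adds no support. Its YAP KO arrays read 125.7 and 575.6 at day 0 and 79.4 to 114.4 at day 2. For Col3a1 in YAP KO the second one also ran opposite to the brightest, at 0.70 ± 0.38 (adjusted p = 0.322). The other probe set of Col1a1 failed the filter. Over the 12 arrays the second probe set correlated with the brightest at r = 0.80 for Acta2, 0.51 for Pdgfrb, 0.41 for Lrat and 0.32 for Dcn. The value was 0.10 for Reln, 0.02 for Col1a1, -0.06 for Col3a1, -0.13 for Col1a2 and -0.18 for Des (n = 12 arrays that share day and genotype). The results above are those of the brightest probe set of each gene. With the kept probe sets of a gene averaged instead, 1 of 9 genes, Lrat, was called for the average over genotypes, and 0 in either genotype alone.

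**Figure D3:**
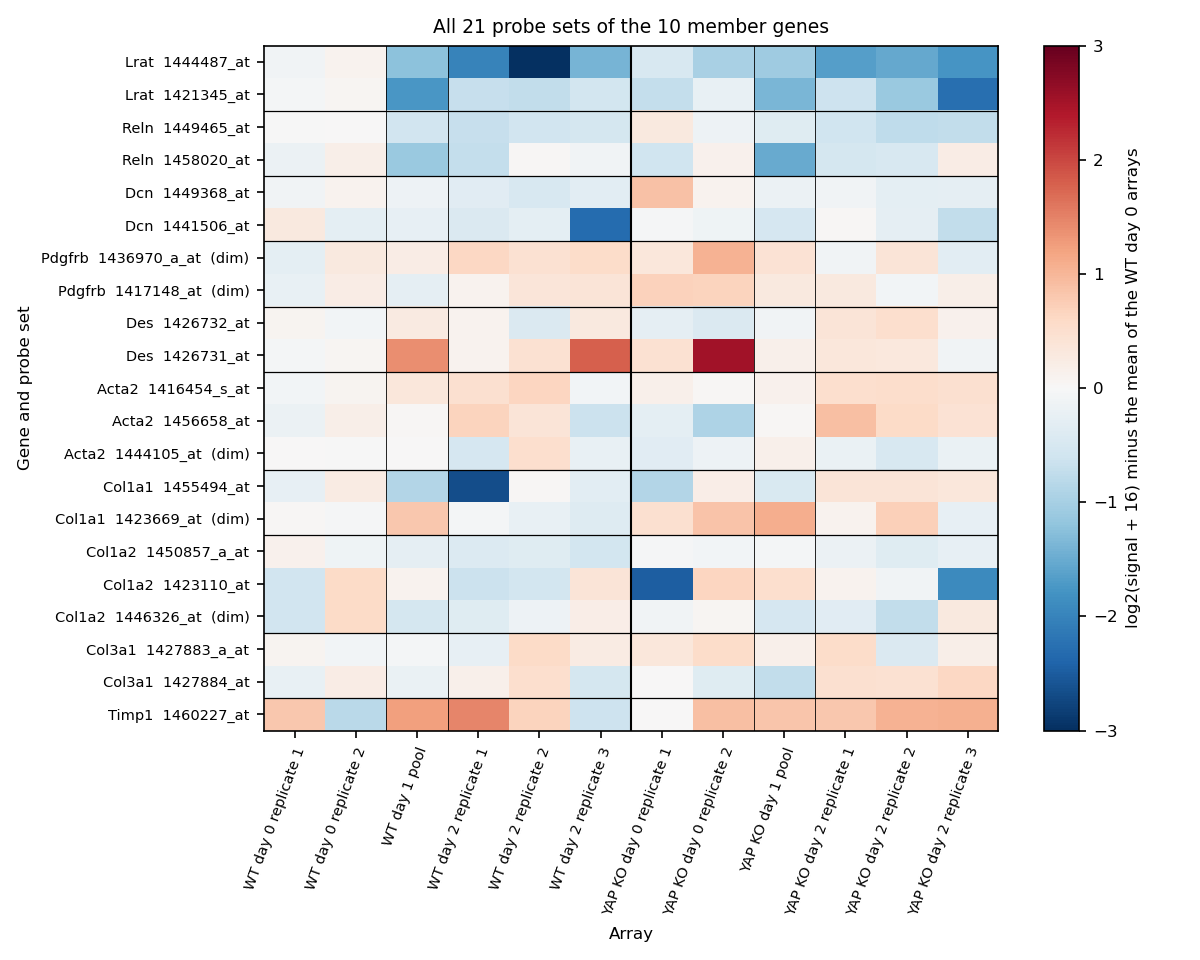
log2(signal + 16) of all 21 probe sets relative to the mean of the WT day 0 arrays (colour) on the 12 arrays (columns), with probe sets that failed the filter marked as dim. The brightest probe sets of Lrat, Reln and Dcn are blue across day 2, palest for Dcn in YAP KO. The second probe set of Lrat is also blue there, and those of Reln and Dcn vary from array to array.

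The comparison of the genotypes asks whether losing YAP in hepatocytes altered these genes, before TCPOBOP and at day 2. No difference between YAP KO and WT was called for any of the 9 genes. At day 2 limma called 0 of 9, where it called 9.22% of all genes, and at day 0 it called 0 of 9, where it called 0.17%. For the difference between the day 2 changes it called 0 of 9, beside 3.15% of all genes, and for the genotypes averaged over days 0 and 2 also 0 of 9, beside 0.34%. At an unadjusted p under 0.05 there was 1 gene in each of these comparisons, and the 13 alternatives other than leaving out arrays gave 0 calls in each. Arrays did not overlap for 2 genes at day 2, Col1a1 and Dcn, both higher in YAP KO, where 20.1% of all genes lay wholly higher, and 0 lay wholly lower, beside 16.1%. At day 0 Col3a1 lay wholly higher in YAP KO, beside 16.6% of all genes, and Lrat and Des wholly lower, beside 19%.

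Of the 9 genes Col1a1 had the largest fitted difference at day 2, 1.36 ± 0.60 (log2, interval 0.05 to 2.67, adjusted p = 0.16 by limma), and 1.19 after quantile normalization (adjusted p = 0.239). It rests on the WT array at 36.1, without which the difference was 0.52 (adjusted p = 0.398). Dcn differed at day 0 by 0.49 ± 0.21 (interval 0.04 to 0.94, adjusted p = 0.575). Without YAP KO day 0 replicate 2, which leaves only the array at 8065, that difference was 0.88 and passed the test (adjusted p = 0.0473), and without YAP KO day 0 replicate 1 it was 0.10 (adjusted p = 0.83). The narrowest intervals of a genotype difference at day 2 were those of Col1a2, -0.07 to 0.45, and Reln, -0.38 to 0.18. For Lrat the interval ran from -0.40 to 1.36 and for Timp1 from -0.64 to 1.56, so a signal up to 2-fold higher in YAP KO lies within both intervals.

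**Figure D4:**
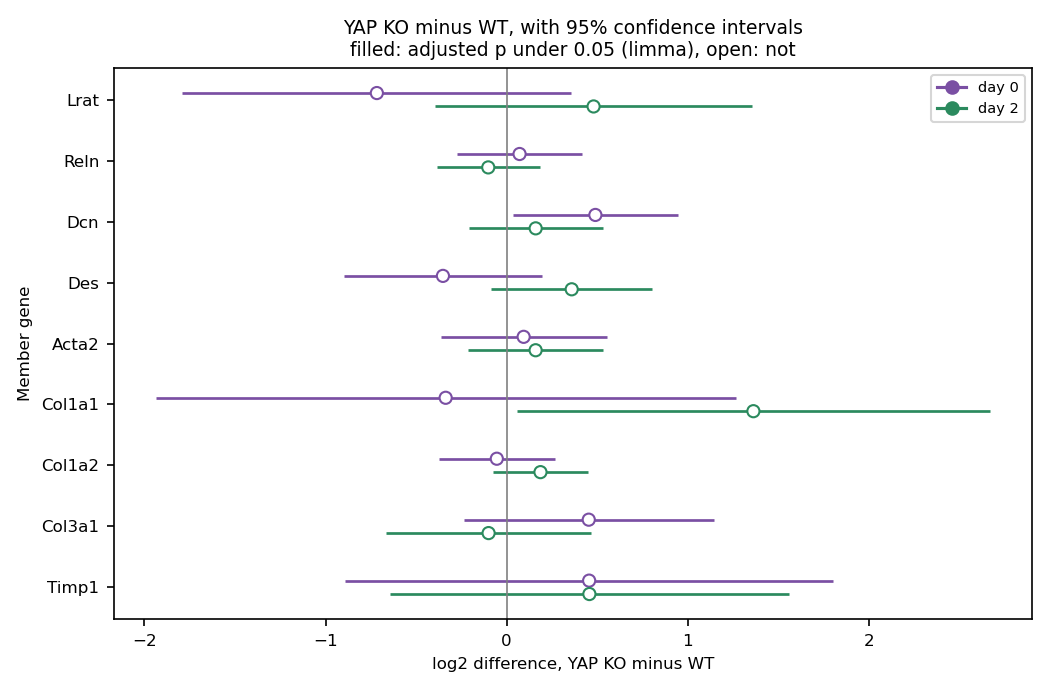
Fitted log2 difference of YAP KO minus WT (horizontal axis) at day 0 (purple) and day 2 (green) for the 9 tested genes, with 95% confidence intervals; filled points would mark an adjusted p by limma under 0.05. All points are open, and Col1a1 at day 2 lies farthest from 0, at 1.36.

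The day 1 arrays are 1 pool per genotype and carry no test. Between the pools 0 of 9 genes differed by 2-fold, where 9.18% of all genes did. The WT pool was past 2-fold below the WT day 0 mean for 1 gene, Lrat, by -1.23 on the log2 scale, where 6.98% of genes were, and past 2-fold above it for 1, Timp1, by 1.24, where 6.35% were. The YAP KO pool was past 2-fold for 0 genes in either direction, beside 6.74% lower and 6.11% higher among all genes. Reln was lower than day 0 by -0.58 in the WT pool and -0.43 in the YAP KO pool, and Dcn by -0.16 and -0.67. Reln thus stood near its day 2 signal on the WT pool.

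Over the 12 arrays Reln, Dcn, Lrat and Col1a2 varied together. Reln correlated with Dcn at r = 0.83 (Spearman's rho 0.74), which was 0.64 without the pair of arrays farthest from the median of Reln, with Lrat at 0.78 (0.85) and with Col1a2 at 0.70 (0.70), and Lrat with Col1a2 at 0.67 (0.71). Acta2 ran against Lrat at r = -0.78 (-0.77) and against Reln at -0.68 (-0.73). Col1a1 and Col1a2, whose proteins assemble into the same fibril, correlated at 0.21 (0.03). These 12 arrays share day and genotype, so the values describe the pattern over days as much as any link between arrays. The genes whose pattern was most like that of Reln were Itih3, a plasma protease inhibitor, and Tfr2, the second transferrin receptor, both at r = 0.97. For Lrat they were Prodh, the proline oxidase, at 0.94, and Hsd11b1, which regenerates active glucocorticoid, at 0.93, and for Dcn it was Abcc9, a potassium channel subunit, at 0.96. Leaving out the pair of arrays farthest from the median of the member, Reln with Itih3 stood at 0.95 and Dcn with Abcc9 at 0.77.

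Of 15 stellate cell markers 14 have a probe set and 9 were tested, and Hand2, Lhx2, Hhip, Ngfr and Pdgfrb were too dim. 4 of the 9 were called lower in WT, 4 in YAP KO and 6 for the average over genotypes, beside 5.38%, 4.49% and 6.84% of all genes, and 0 were called higher. The list holds Lrat, Reln, Des and Dcn, whose calls are given above, so its count is not independent of them. Of the 5 other tested markers 3 were called lower for the average. Colec11, a secreted collectin, read 2291 and 2127 at WT day 0 and 1582, 1588 and 1423 at WT day 2, and 2446 and 2670 against 2010, 1676 and 1665 in YAP KO. It fell by 0.52 ± 0.09 for the average (adjusted p = 0.00247) and Ecm1, an extracellular matrix protein, by 0.49 ± 0.09 (adjusted p = 0.00327). Rgs5, a pericyte signalling regulator, fell by 0.43 ± 0.12 (adjusted p = 0.0374), a call lost in 8 of 10 fits with an array left out. Gfap, an intermediate filament protein, changed by 0.18 ± 0.14 (adjusted p = 0.481) and Cygb, a globin, by 0.14 ± 0.21 (adjusted p = 0.734). The summed signal of the 9 markers lay between 16407 and 16687 at WT day 0 and between 11723 and 12188 at WT day 2. In YAP KO it lay between 16862 and 21629 at day 0 and between 13130 and 14427 at day 2, without overlap of the days in either genotype. Such sums weigh bright probe sets most. This one includes the bright signals of Dcn and Reln, so it is not independent of their calls.

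Markers of other liver cells moved as well, and their part in these results was not tested. The shares of all genes called lower, 5.38% in WT and 4.49% in YAP KO, stand beside each count. Of 9 sinusoidal endothelial markers, all tested, 2 were called lower in WT and 1 in YAP KO, and their summed signal was 11436 to 11704 at WT day 0, 8987 to 10052 at WT day 2, 10670 to 13199 at YAP KO day 0 and 10227 to 12106 at YAP KO day 2. Clec4g, an endothelial lectin, fell by 0.95 ± 0.17 in WT (adjusted p = 0.00303). Of 11 Kupffer cell and macrophage markers, all tested, 1 was called lower in WT and 2 in YAP KO, with sums of 18063 to 18505 and 14767 to 16544 at WT days 0 and 2, and 16605 to 16659 and 11181 to 15668 in YAP KO. C1qb, a complement subunit made by macrophages, fell by 1.63 ± 0.15 in YAP KO (adjusted p = 5.58e-05). Of 6 vascular smooth muscle markers 3 were tested, and Cnn1, Actg2 and Tagln were too dim. Mylk, the kinase that starts smooth muscle contraction, rose by 0.73 ± 0.14 in WT (adjusted p = 0.00594, lost without WT day 0 replicate 1) and 1.12 ± 0.14 in YAP KO (adjusted p = 0.000567), and the list's sum went from 2865 to 3024 at WT day 0 to 4216 to 4795 at WT day 2, and from 2511 to 2690 to 4547 to 5495 in YAP KO. Of 8 hepatocyte markers 7 were tested, and 6 were called lower in YAP KO, where their sum was 371119 to 439878 at day 0 and 218470 to 279791 at day 2. In WT 2 were called higher and 1 lower, with sums of 324656 to 325452 and 367556 to 419835. These hepatocyte counts depend on the scaling. After quantile normalization 0 were called higher and 4 lower in WT, and 0 higher and 2 lower in YAP KO. Alb read 0.69 in WT as deposited and 0.13 after it (adjusted p = 0.314), and -0.84 and -0.10 in YAP KO (adjusted p = 0.471 after it).

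Beyond the fibrillar chains, 14 other collagen genes were tested and 1 was called in each genotype, a share below the 12.6% of all genes called in WT and the 8.69% in YAP KO. The values below therefore concern 1 gene, not collagens as a group. Col18a1, the basement membrane collagen that yields endostatin, read 9674 and 10500 at WT day 0, 4486 on the WT pool and 4925, 3829 and 4764 at WT day 2. The YAP KO signals were 11419 and 11910 at day 0, 4760 on the pool and 4049, 3781 and 4094 at day 2. It was thus low already on both day 1 pools and did not overlap between the days. Its change was -1.17 ± 0.13 in WT (adjusted p = 0.000141) and -1.55 ± 0.13 in YAP KO (adjusted p = 3.52e-05). Between the genotypes at day 2, 2 of the 14, Col5a3 and Col6a2, were called higher in YAP KO, beside 9.22% of all genes called in either direction. These calls were lost in 5 and 6 of 6 fits with an array left out.

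Of 17 tested collagen processing enzymes, 2 were called higher and 2 lower in WT, where 7.26% of all genes were higher and 5.38% lower, and 1 lower in YAP KO, where 4.49% were. Bmp1, the protease that trims procollagen, fell by 0.76 ± 0.16 in WT (adjusted p = 0.00741, lost without WT day 0 replicate 1) and fell by 1.31 ± 0.16 in YAP KO (adjusted p = 0.000305). Ppib, a prolyl isomerase of the collagen folding complex, rose by 0.85 ± 0.15 in WT (adjusted p = 0.00257). At day 2, 4 of the 17 were called lower in YAP KO than in WT and 1 higher, beside 9.22% of all genes called, and after quantile normalization 2 lower and 0 higher. The lower ones include P4hb, the protein disulfide isomerase subunit of prolyl hydroxylase, at -0.47 ± 0.12 (adjusted p = 0.035), which reads 0.07 after quantile normalization (adjusted p = 0.577), and Ppib, at -0.62 ± 0.13 (adjusted p = 0.0158) and -0.31 after it (adjusted p = 0.117).

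Of 22 tested matrix glycoproteins and proteoglycans, 1 was called higher and 6 lower for the average over genotypes, beside 7.7% and 6.84% of all genes. Igfbp7, a secreted binding protein of vessels and stroma, fell by 0.65 ± 0.09 (adjusted p = 0.000289), and by 1.01 ± 0.12 in YAP KO alone (adjusted p = 0.000326). Nid1, which links laminin to basement membrane collagen, rose by 1.10 ± 0.22 (adjusted p = 0.00544). Lama2, a laminin chain, read 284.4 and 373.4 at WT day 0 and 59.9, 48.4 and 58.7 at WT day 2, whereas YAP KO read 264.1 and 316.3 and then 225.7, 249.5 and 334.6. The WT day 2 arrays were far below all others, and the genotypes differed at day 2 by 1.98 ± 0.36 (adjusted p = 0.00822). All WT day 2 signals of Lama2 were very dim, so no fold is given and the size of this difference depends on the value added before the log. Among 18 tested matrix proteases and inhibitors, 3 were called higher and 1 lower in YAP KO at day 2, beside 9.22% of all genes, and 2 higher and 0 lower after quantile normalization. Timp3, a matrix-bound metalloproteinase inhibitor, read 635.4, 595 and 549.6 in WT and 1165, 1292 and 1104 in YAP KO, a difference of 0.98 ± 0.14 (adjusted p = 0.00324). Mmp19, a metalloproteinase, rose by 1.41 ± 0.31 for the average over genotypes (adjusted p = 0.00974).

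Among 20 tested genes of TGF beta signalling, the main fibrogenic pathway of stellate cells, 1 was called higher in each genotype, where 7.26% of all genes were in WT and 4.2% in YAP KO. Ski, a repressor of this signalling, was called lower in WT (-0.70 ± 0.21, adjusted p = 0.0473, and 0.0603 after quantile normalization) and for the average (-0.51 ± 0.15, adjusted p = 0.0389). Tgfbr2, the type II receptor, read 712.8 and 788.4 at WT day 0, 2462 on the WT pool and 2678, 2120 and 2191 at WT day 2. Its YAP KO signals were 881.2 and 958 at day 0, 2747 on the pool and 2509, 2484 and 2474 at day 2. Its rise was 3.05-fold in WT (log2 1.61 ± 0.14, adjusted p = 1.66e-05) and 2.68-fold in YAP KO (log2 1.42 ± 0.14, adjusted p = 6.29e-05), and both pools were already at the day 2 signal. Tgfb1, the ligand, changed by -0.29 ± 0.14 in WT (adjusted p = 0.22) and 0.04 ± 0.14 in YAP KO (adjusted p = 0.924). Of 8 tested genes of PDGF signalling 2 were called higher in WT, beside 7.26% of all genes, and 0 by limma in YAP KO, where it called 8.69% in either direction. For the average 2 were called higher and 1 lower, beside 7.7% and 6.84% of all genes. Pdgfa, a ligand chain, rose by 1.70 ± 0.35 for the average (adjusted p = 0.00629).

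Of 14 tested contractile and cytoskeletal genes, 6 were called higher in WT and 2 in YAP KO, where 7.26% and 4.2% of all genes were, and 6 were called lower in YAP KO than in WT at day 2, beside 9.22% of all genes called in either direction. After quantile normalization 5 were higher in WT, 1 was higher and 1 lower in YAP KO, and 5 were lower in YAP KO than in WT. The list holds Acta2, whose own values are above, and many of its genes are expressed by all liver cells. Tpm1, a tropomyosin, rose by 2.13 ± 0.22 in WT (adjusted p = 8.5e-05), and Tagln2, an actin-binding protein, by 1.64 ± 0.18 in WT (adjusted p = 0.000143) and 1.40 ± 0.18 in YAP KO (adjusted p = 0.000661). Actg1, a cytoplasmic actin, read 12554, 9907 and 10146 in WT and 4802, 4155 and 4460 in YAP KO at day 2, a difference of -1.27 ± 0.16 (adjusted p = 0.00187), and -1.01 after quantile normalization (adjusted p = 0.00706). The change of Actg1 differed between the genotypes by -1.70 ± 0.25 (adjusted p = 0.00973).

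Of 10 tested genes of retinoid storage and transfer, where Lrat belongs, 2 were called higher in WT, and 2 higher and 3 lower in YAP KO, beside 12.6% and 8.69% of all genes called in either direction. After quantile normalization 2 were higher and 1 lower in WT, and 2 higher and 2 lower in YAP KO. Which cells these signals come from was not tested. Rarb, a retinoic acid receptor, rose by 1.22 ± 0.22 in YAP KO (adjusted p = 0.00463) and Pnpla3, a lipase that releases retinol from its ester, by 1.50 ± 0.23 (adjusted p = 0.00178). Plin5, a coat protein of lipid droplets, fell by 1.26 ± 0.19 in YAP KO (adjusted p = 0.00155) and Dgat2, which makes triglyceride, fell by 0.71 ± 0.13 (adjusted p = 0.0061). Of 4 genes of the reelin pathway 1 was called higher in each genotype, on a list too short to set against those shares. Vldlr, a reelin receptor, rose by 1.28 ± 0.35 in WT (adjusted p = 0.035) and Dab1, the adaptor that carries the signal, by 0.89 ± 0.21 in YAP KO (adjusted p = 0.02), calls lost in 4 and 5 of 5 fits with an array left out.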

How the data were processed

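The authors deposited intensity values, computed with MAS5 per the submitters' processing notes, which give no version. Each of the 12 arrays has a mean of 499.9 over its signals from the 2nd to the 98th percentile. The values were used as log2(intensity + 16) without further normalization. The array files name no genome build. Genes were assigned by the platform annotation (34945 name 1 gene, 932 several, 9160 none, 64 controls). Probe sets passed the filter with a signal over the array's own median on at least 2 of 12 arrays, and a gene was represented by its brightest passing one, leaving 14102 genes. limma 3.58.1 in R 4.3.3 was fitted with 6 groups on the 12 arrays, using robust eBayes with a trend. Tests are two-sided, p-values were adjusted by Benjamini-Hochberg across the 14102 genes, and the threshold for a call was 0.05. Fold changes are on the log2(intensity + 16) scale, and the number of arrays limits the precision. The fit was tested on simulated data.

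The members and the 20 gene lists were chosen with earlier results of these data known. The named genes are all members, Yap1, Ccn2, up to 4 called genes of each list by size of change, and the 3 genes most correlated with each member, of which the text gives a part. Tgfb1, Gfap and Cygb lie outside that rule and were chosen after their values were seen. Promoters are RefSeq's, build GRCm38.p6. Alternatives were 3 normalizations, pseudocounts of 1 and 64, 2 other filters, 2 treatments of probe sets, other eBayes settings, only the arrays compared, the replicate number as a block, another threshold and leaving out each array. No arrays held identical values. Figures were drawn with Python 3.11.15 and matplotlib 3.10.9.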

Additional observations from a re-analysis of the deposited data

How the results depend on the processing

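The 8 calls of a member kept their direction in all 162 recomputed values and their call in 124 of them. The stricter filter removed Lrat, so its calls have no value in that setting. Called members numbered 1 in WT (2 in the text) with arrays centred on the median or with eBayes without trend and robust, 0 with the probe sets of a gene averaged, and 0 to 3 with an array left out. In YAP KO they numbered 1 (2 in the text) with median centring, no filter, eBayes without trend and robust, or only the arrays compared, 0 with probe sets averaged, and 1 to 2 with an array left out. For the average over genotypes (4) they numbered 1 with probe sets averaged and 2 without trend and robust. YAP KO against WT gave 0 to 1 at day 0 and for the average over days, and 0 at day 2 and for the difference between changes, with an array left out. Among list genes, the direction turned for P4hb at day 2 between genotypes (0.0679 after quantile and 0.0719 after cyclic loess normalization), Ttr (0.25 at day 2 and 0.27 for the difference, after quantile normalization), and Tspan8 (-0.0179) and Mmp2 (-0.60) at day 2 with probe sets averaged. The causes were not tested.

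Counts of calls over all genes moved by over 1.5 times as follows. Between the genotypes at day 2, against 1300, they numbered 748 without trend and robust, 2448 at an adjusted p under 0.1 and 408 to 979 with an array left out. For the difference between changes, against 444, they numbered 288 after quantile normalization, 275 without the filter, 76 without trend and robust, 1055 at 0.1 and 57 to 698 with an array left out. At day 0, against 24, the range over all settings was 0 to 134, and for the genotypes averaged, against 48, it was 15 to 329. In YAP KO, against 1225, they numbered 801 with only the arrays compared, 1840 at 0.1 and 777 to 1253 with an array left out, and in WT, against 1782, 880 to 1458 with an array left out.

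Same-numbered arrays did not deviate together (r from -0.02 to 0.03 over 13 pairs), so the numbers were not taken as pairs. With the replicate number as a block, 1 member was called in YAP KO against 2, since Dcn lost its call (-0.72, adjusted p = 0.0587 by limma), and 2 were called in WT. For the average the count was again 4, but not of the same genes: Col1a2 lost its call (-0.30, adjusted p = 0.108) and Acta2 gained one for a higher signal (0.49, adjusted p = 0.0401), while Lrat, Reln and Dcn were called lower as before. Also under the block, 286 genes were called for the difference between changes.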

Other observations

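Markers of further cell types are given as values. Among all genes limma called 12.6% between days 0 and 2 in WT, 8.69% in YAP KO, and 9.22% between the genotypes at day 2. These lists are too short to set their counts against those shares. Of 8 tested portal fibroblast and mesothelial markers, 0 were called by limma between days 0 and 2 in either genotype, and 1, Cd34, was called higher in YAP KO at day 2 (1.83 ± 0.46, adjusted p = 0.0305, lost in 5 of 6 fits with an array left out). Msln, Wt1 and Gpm6a, which define mesothelial cells, were too dim to test. Of 3 tested cholangiocyte markers only Tspan8 was called, at day 2 between genotypes (0.59 ± 0.14, adjusted p = 0.0271, lost in 5 of 6 such fits), and Krt7 and Krt19 were too dim. Of 6 tested lymphocyte markers, Cd8a was called higher in YAP KO (0.80 ± 0.17, adjusted p = 0.0108, lost without YAP KO day 0 replicate 2) and Ms4a1 lower in WT (-0.86 ± 0.26, adjusted p = 0.0467, lost in 4 of 5). None of 4 neutrophil markers was called by limma in any comparison. Alas2, an enzyme of heme synthesis in red cell precursors, was called lower in YAP KO (-1.98 ± 0.41, adjusted p = 0.0106, also lost without YAP KO day 0 replicate 2).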
